A study of Mus musculus with 3 samples.

Results

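The genes described here encode 4 growth factor systems of the mammary gland, namely those of fibroblast growth factors (FGF), platelet-derived growth factors (PDGF), hepatocyte growth factor (HGF) and insulin-like growth factors (IGF). They were taken by a rule on gene names, which was set with earlier results of these data known. It took the Fgf ligands, Fgfr1 to Fgfr4, the PDGF ligands and receptors, and Hgf with its receptor gene Met. It also took Igf1, Igf2 and their receptors, and Igfbp1 to Igfbp7. This gave 45 of the 22249 gene names in the tables. RNA was sequenced from 3 pooled samples of FVB mice, with 1 library per group. LCC, the lung-colonizing cells, were mammary cells of FVB.GFP females (which carry GFP), or FVB mammary cells stained with the dye DDAO, that had been injected into a vein of FVB recipients and were sorted from the lungs 1 day later by GFP or DDAO alone. Each experiment took 8 donors and 4 recipients, given 2 injections of 2500000 cells, and 15 experiments with 42 lungs and 455880 recovered cells were pooled. E-Int29-Hi was the fraction of dissociated mammary cells with intermediate EpCAM (an epithelial adhesion molecule) and high CD29 (integrin beta-1), 3 samples combined, which the labels describe as holding the colonizing cells. MG was mammary gland, 3 samples combined, which is labelled as undissociated tissue in one place and as RNA of all breast cells in another. The series was made to describe the expression profile of the colonizing cells and to find genes that differ among these populations.

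FGFs, PDGFs, HGF and IGFs are secreted proteins that act through receptor tyrosine kinases, which pass the signal on through the MAP kinase and PI3 kinase pathways. In the mammary gland, stromal FGF7, FGF10 and HGF act on epithelial receptors encoded by Fgfr2 and Met during branching of the ducts. PDGFs mainly act on fibroblasts and on the pericytes of vessels, which carry the PDGF receptors. IGF-I mediates part of the growth hormone effect on the gland, and the IGF-binding proteins hold IGFs outside the cell, where they can block or prolong their action.

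Levels are FPKM values (fragments per kilobase of gene model relative to all mapped fragments), which account for gene length and so can be compared between genes. Differences between libraries are log2((FPKM + 1)/(FPKM + 1)), a scale that understates the change of low genes, and "higher" and "lower" without a value mean at least 4-fold apart on it, among genes that reached 1 FPKM in either library. With 1 library per group there was no replicate check and no test, and every value describes these pools. In pooled tissue or cell samples, fewer cells of a type and less RNA per cell cannot be told apart. Marker lists differed among the libraries. Summed over 8 basal mammary markers the level was 653 FPKM in LCC, 7315 in the E-Int29-Hi library and 460.4 in MG. Over 8 luminal markers it was 4428, 319 and 2383 FPKM, with Krt8 at 1258 and Krt18 at 2368 FPKM in LCC. A few abundant keratins weigh heavily in such sums. In LCC over MG, 3 of the 8 basal markers stood above and 5 below, with a median log2 difference of -0.94. The luminal list also had 3 above and 5 below, with a median of -1.06. The 8 lung epithelium markers summed to 639.6 FPKM in LCC against 2.38 and 1.81 FPKM, with 3 and 2 of them listed at 0 in E-Int29-Hi and MG. The 9 macrophage markers summed to 506, 128 and 102 FPKM, and the 5 adipocyte markers to only 0.516, 0.691 and 4.70 FPKM, also in the library labelled as gland.

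Of the 45 genes, 23 stood at 1 FPKM or more in all 3 libraries and 12 stood below 1 FPKM in each. Those 12 were Igfbp1 and 11 of the 22 Fgf ligand genes (Fgf3, Fgf4, Fgf5, Fgf6, Fgf8, Fgf9, Fgf15, Fgf16, Fgf17, Fgf20 and Fgf22), whose highest value was 0.896 FPKM, for Fgf16 in LCC. Fgf6 was listed at 0 in every library. In all, 10 genes of the set were listed at 0 in LCC, 4 in the E-Int29-Hi fraction and 1 in MG, while 30.9%, 22.4% and 14.3% of all gene names were listed at 0 in the same order. The set made up 0.235% of the summed FPKM in LCC, 0.548% in the E-Int29-Hi library and 0.481% in MG.

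**Figure D1:**
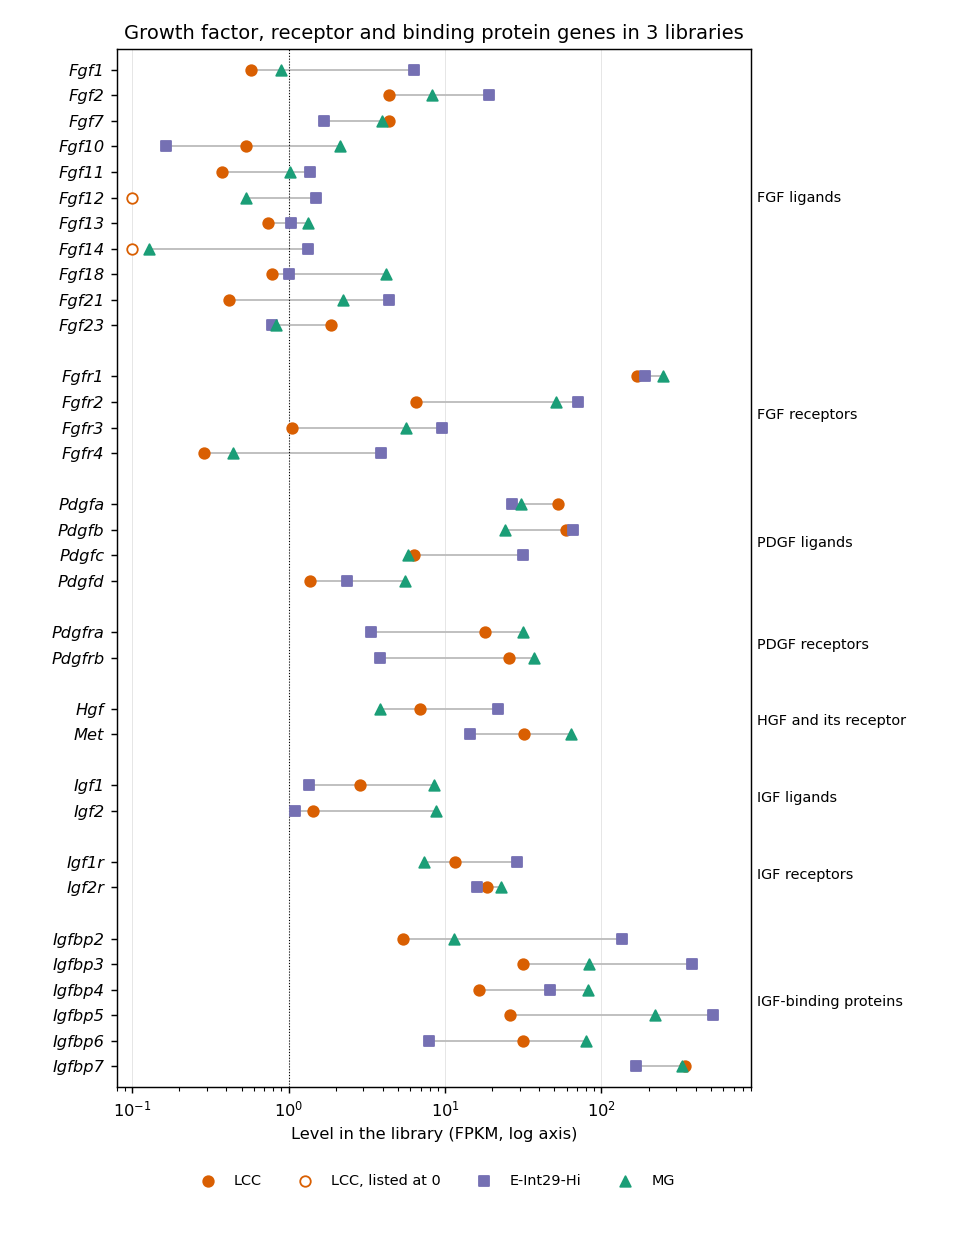
Level of each gene in each library, for the 33 genes that reached 1 FPKM in any library. The x axis is FPKM on a log scale, each point is 1 library, the dotted line marks 1 FPKM, and open circles at the left edge are genes listed at 0 in LCC. The binding protein genes Igfbp2, Igfbp3 and Igfbp5 reach 135 to 515 FPKM in E-Int29-Hi, and Pdgfra and Pdgfrb have their lowest levels there.

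In LCC against E-Int29-Hi, 31 genes of the set could be compared. The 2 PDGF receptor genes were higher in LCC (Pdgfra and Pdgfrb), and 7 genes were lower (Fgf1, Fgfr2, Fgfr3, Igfbp2, Igfbp3, Igfbp5 and Pdgfc). By the same rule, 4.64% of all 12147 genes were higher and 4.35% lower. The median difference of the set was -0.79, and that of all genes was 0.26. At 2-fold, 5 genes of the set were above and 15 below E-Int29-Hi, with 21.2% and 14.1% of all genes beyond that limit. Scaling each library by its median ratio to the others left 1 gene of the set higher (Pdgfrb) and 10 lower, and turned the split of all genes from 564 higher and 528 lower to 451 and 700.

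In LCC against MG, 29 genes could be compared, of which 0 were higher and 4 lower (Fgfr2, Igf2, Igfbp4 and Igfbp5). The shares of all 12443 genes were 1.33% and 2.63%, and the median difference was -0.78 in the set and 0.01 over all genes. At 2-fold, 1 gene (Pdgfb) was above and 12 were below MG, against 10.9% and 12.8% of all genes. Rescaling every library to 1 common sum (TPM) gave 8 lower genes in the set and moved all genes from 166 higher and 327 lower to 157 and 919.

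In E-Int29-Hi against MG, 4 of 32 genes were higher (Hgf, Igfbp2, Igfbp3 and Pdgfc) and 6 lower (Igf1, Igf2, Igfbp6, Met, Pdgfra and Pdgfrb). Among all 12430 genes 2.60% were higher and 3.97% lower. The median differences of this pair were 0.02 in the set and -0.23 over all genes. At 2-fold, 11 were above and 8 below MG, against 8.99% and 15.5% of all genes. Median ratio scaling gave 6 higher and 3 lower (Igfbp6, Pdgfra and Pdgfrb), with 465 higher and 356 lower genes in all in place of 323 and 494. TPM gave 6 and 7, with 375 and 1011 in all. The comparisons share libraries and are not independent of each other.

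**Figure D2:**
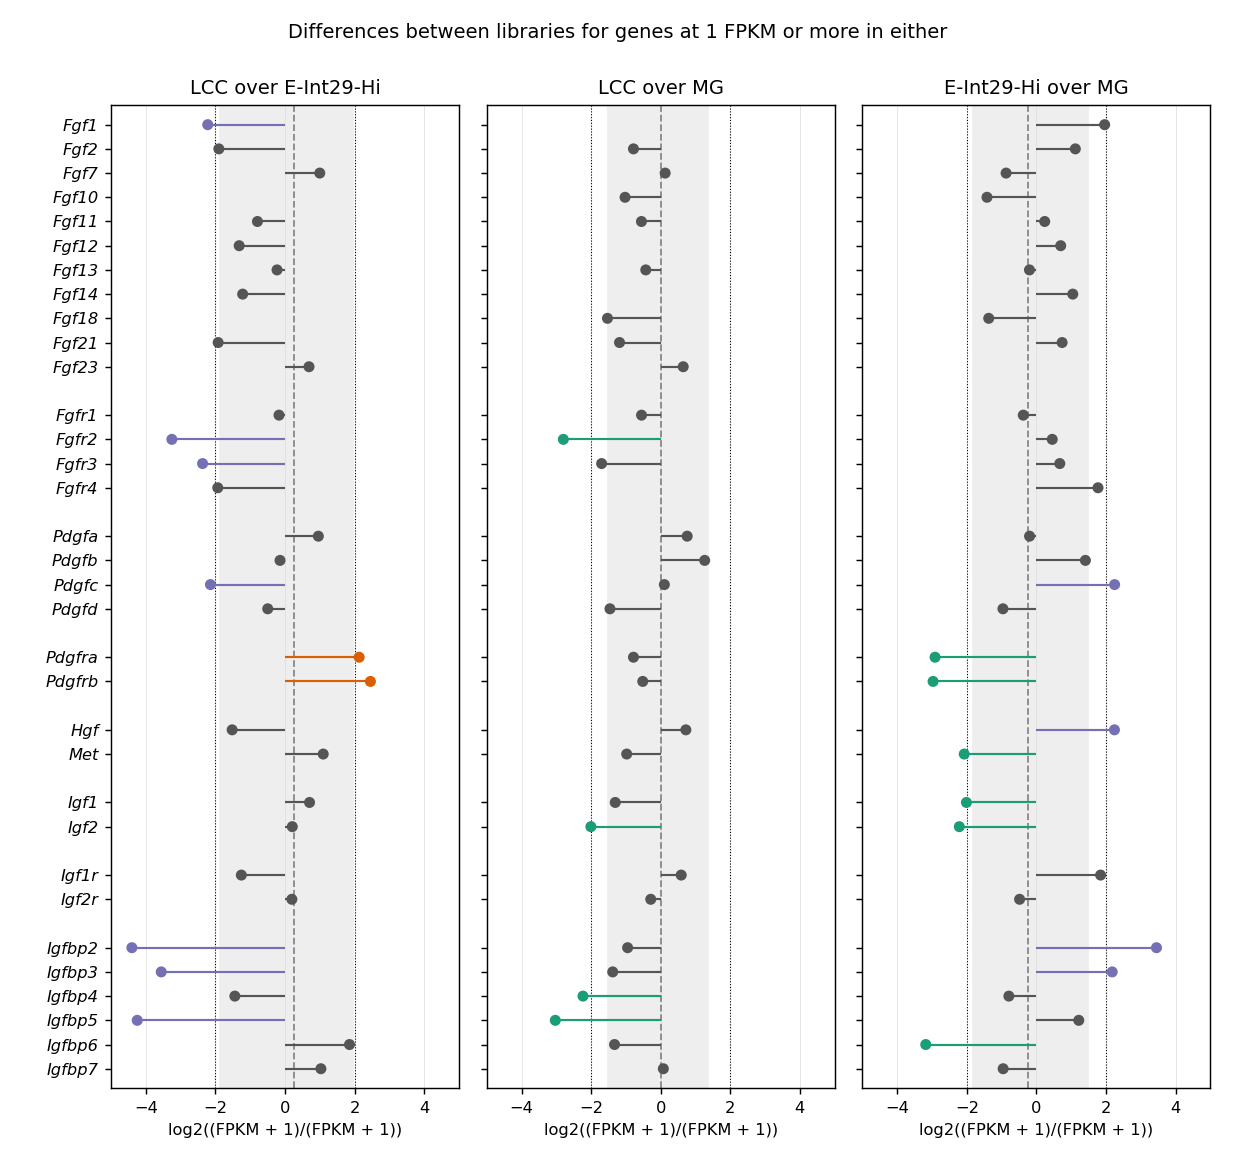
Difference of each gene between 2 libraries, on the log2 scale of the x axis, for genes that reached 1 FPKM in either library. Coloured points are at least 4-fold apart (dotted lines) and take the colour of the library in which the gene is higher (orange LCC, purple E-Int29-Hi, green MG). The grey band holds the middle 90% of all genes and the dashed line their median, which lies at 0.26, 0.01 and -0.23 from left to right.

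Ordered by library, the set was spread unevenly. Of the 33 genes that reached 1 FPKM in any library, 4 had their highest level in LCC, 16 in the E-Int29-Hi fraction and 13 in MG, whereas 41.6%, 25.2% and 33.2% of all 12772 such genes did. LCC held the lowest level of 17, E-Int29-Hi that of 12 and MG that of 4, against 32.0%, 47.5% and 20.4% of all genes. These ranks take in differences of any size and were not recounted under the scalings. Under TPM, LCC fell below MG for Fgf7, Igfbp7 and Pdgfc (-0.21, -0.31 and -0.25). Median ratio scaling changed the sign for Igf2r in LCC over E-Int29-Hi (-0.08) and for Pdgfa in E-Int29-Hi over MG (0.13). At least 4-fold apart from both other libraries, LCC was higher for 0 genes and lower for 2 (Fgfr2 and Igfbp5), with 0.987% and 0.587% of all genes. E-Int29-Hi was higher for 3 (Igfbp2, Igfbp3 and Pdgfc) and lower for 2 (Pdgfra and Pdgfrb), with 1.99% and 1.45% of all genes. MG was higher for 1 (Igf2) and lower for 0, with 1.16% and 0.0626%.

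The IGF-binding proteins were the most abundant family of the set, and the genes that led it differed between the libraries. Igfbp2, Igfbp3 and Igfbp5 together held 82.3% of the family's summed FPKM in E-Int29-Hi, 39.3% in MG and 13.9% in LCC. Igfbp7, whose product binds IGFs weakly and lies in vessel walls and matrix, held 13.3%, 40.5% and 75.6%. These shares do not depend on how a whole library is scaled.

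Igfbp5 encodes a binding protein known from the involuting mammary gland. It stood at 515 FPKM in E-Int29-Hi, where it ranked 72 among 22077 gene names, at 221 FPKM in MG and at 26.1 FPKM in LCC. Its log2 difference was -4.25 for LCC over E-Int29-Hi, -3.03 for LCC over MG and 1.22 for E-Int29-Hi over MG, so that LCC stood apart below both other libraries. Igfbp3, which encodes the main carrier of IGFs in blood, stood at 381 FPKM in E-Int29-Hi, 83.3 in MG and 31.4 in LCC (-3.56 for LCC over E-Int29-Hi). Igfbp2 stood at 135 FPKM in E-Int29-Hi, 11.4 in MG and 5.42 in LCC. Its difference of -4.40 for LCC over E-Int29-Hi was the largest in size of the set, in the deposited FPKM and under either scaling, although with a pseudocount of 5 it was -3.75 and that of Igfbp5 was -4.06. E-Int29-Hi was at least 4-fold above both other libraries for Igfbp2 and Igfbp3.

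The next 250 bases show the stretch just before the start of 4 of these genes, from RefSeq on build GRCm38.p6 and not on the build of the tables. The 3 binding protein genes with their highest level in E-Int29-Hi are set beside Igfbp7, the most abundant of the family in LCC, for a view of what letters their promoters hold. Igfbp2 lies at chr1:72824230-72824479 (+ strand, the first of 2 starts in the table), Igfbp5 at chr1:72874866-72875115 (- strand), Igfbp3 at chr11:7213924-7214173 (- strand) and Igfbp7 at chr5:77408046-77408295 (- strand). Each is written 5′ to 3′ along its gene, and capitals mark GGGCGG, the GC box, on either strand.
Igfbp2: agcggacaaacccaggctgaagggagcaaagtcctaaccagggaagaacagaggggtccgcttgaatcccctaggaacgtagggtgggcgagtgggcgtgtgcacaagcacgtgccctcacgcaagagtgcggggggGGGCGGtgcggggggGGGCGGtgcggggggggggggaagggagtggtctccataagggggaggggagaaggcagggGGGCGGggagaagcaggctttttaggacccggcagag
Igfbp5: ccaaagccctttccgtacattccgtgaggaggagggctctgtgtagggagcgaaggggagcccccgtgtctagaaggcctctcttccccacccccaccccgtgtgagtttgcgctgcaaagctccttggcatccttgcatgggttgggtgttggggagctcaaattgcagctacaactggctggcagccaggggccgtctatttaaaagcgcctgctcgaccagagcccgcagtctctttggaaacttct
Igfbp3: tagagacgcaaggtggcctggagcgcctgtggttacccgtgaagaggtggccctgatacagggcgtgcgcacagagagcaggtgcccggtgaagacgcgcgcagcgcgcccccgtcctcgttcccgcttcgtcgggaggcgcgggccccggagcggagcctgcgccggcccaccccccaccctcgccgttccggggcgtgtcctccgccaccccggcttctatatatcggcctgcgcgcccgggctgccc
Igfbp7: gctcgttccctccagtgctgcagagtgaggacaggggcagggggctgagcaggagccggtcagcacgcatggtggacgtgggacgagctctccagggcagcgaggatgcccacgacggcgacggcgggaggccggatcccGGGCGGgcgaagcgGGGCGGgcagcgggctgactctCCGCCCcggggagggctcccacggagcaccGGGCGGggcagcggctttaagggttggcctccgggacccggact

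The GC box was found 3 times before Igfbp2 and 4 times before Igfbp7, and not in the windows of Igfbp5 and Igfbp3, while 32.7% of all 32851 promoter windows of this length held it on either strand. TATAAA was found in 0 of these 4 windows and in 12.4% of all. It did occur in the windows of Igfbp4 (28 bases before the start) and Igfbp6 (148 bases before it, - strand), which are not shown. TGANTCA, the AP-1 element, was found in 0 of the 4 and in 6.75% of all. No matches overlapped. The 4 windows shown were rich in G and C, against a median of 52.4%. They held 67.2% for Igfbp2, 58.8% for Igfbp5, 73.2% for Igfbp3 and 74% for Igfbp7. No searched element was shared by the 3 genes with their highest level in E-Int29-Hi. In the order of that annotation, Igfbp2 and Igfbp5 are neighbours on chromosome 1 and point towards each other, and Igfbp1 and Igfbp3 are neighbours on chromosome 11. The first pair had its highest level in the same library, while Igfbp1 was at most at 0.0269 FPKM (in MG) beside the abundant Igfbp3.

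The other 3 detected binding protein genes did not have their highest level in E-Int29-Hi. Igfbp6, whose product prefers IGF-II, stood at 7.95 FPKM in E-Int29-Hi, 31.3 in LCC and 80.2 in MG, and was lower in E-Int29-Hi than MG (-3.18). Igfbp4, whose product inhibits IGF action and is cleaved by the protease PAPP-A, stood at 16.5 FPKM in LCC, 46.6 in the E-Int29-Hi library and 81.4 in MG, and was lower in LCC than in MG (-2.23). Igfbp7 stood at 343 FPKM in LCC, 325 in MG and 167 in E-Int29-Hi. The small difference of Igfbp7 between LCC and MG (0.07) turned to -0.31 under TPM. Basal mammary markers moved with Igfbp2, Igfbp3 and Igfbp5 in the comparisons with E-Int29-Hi. All 8 were at least 4-fold lower in LCC than in E-Int29-Hi, and 6 of 8 were higher in E-Int29-Hi than MG. In LCC over MG the markers were split, with 3 above and 5 below. Igfbp2, Igfbp3 and Igfbp5 all stood below MG there (-0.95, -1.38 and -3.03). The part of these markers in the binding protein levels was not tested.

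**Figure D3:**
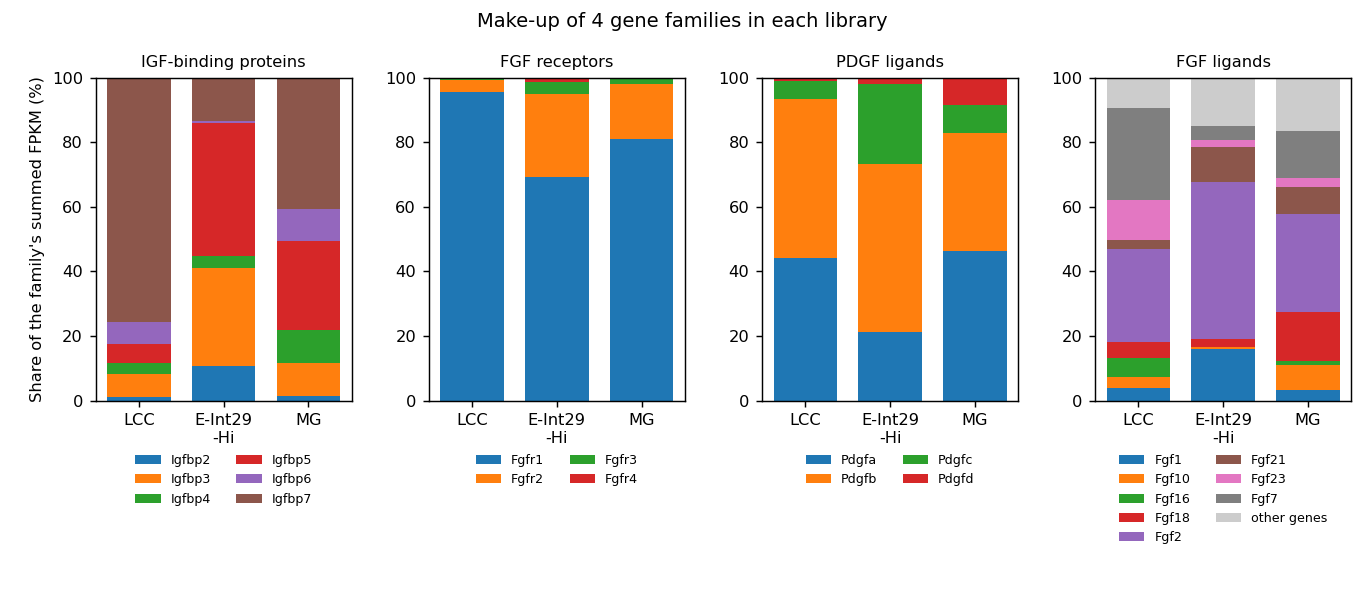
Make-up of 4 families, as the share of each gene in the family's summed FPKM (y axis, percent) in each library (x axis). Igfbp7 makes up 75.6% of the binding proteins in LCC and 13.3% in E-Int29-Hi, Fgfr1 makes up 95.5% of the FGF receptors in LCC, and Pdgfc has its largest share of the PDGF ligands in E-Int29-Hi (24.9%). In the FGF ligand panel, genes under 5% in each library are pooled as other genes.

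The 2 IGF ligand genes were low in all libraries and highest in MG. Igf1 stood at 8.51 FPKM in MG, 2.84 in LCC and 1.36 in E-Int29-Hi, and Igf2, a fetal growth factor, at 8.78, 1.43 and 1.11 FPKM. Both were lower in E-Int29-Hi than MG (-2.01 and -2.22), and Igf2 was also lower in LCC than in MG (-2.01). These differences lay close to the 4-fold limit, and median ratio scaling brought all of them inside it.

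Igf1r did not follow the ligands, whereas Igf2r had the same order of libraries as they did in the deposited FPKM. Igf1r, which encodes the signalling receptor of both IGFs, stood at 28.9 FPKM in E-Int29-Hi, 11.5 in LCC and 7.33 in MG. Igf2r, which encodes a receptor that removes IGF-II and carries lysosomal enzymes, stood at 22.8 FPKM in MG, 18.5 in LCC and 16.0 in E-Int29-Hi, the closest levels of the 2. Its difference for LCC over E-Int29-Hi was 0.20, and it changed sign under both scalings (lowest value -0.08). The level of Igf1r was 1.81 times that of Igf2r in E-Int29-Hi, 0.624 times in LCC and 0.322 times in MG.

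Among 15 genes of IGF carriers, IGF-related proteases and receptor substrates, 10 could be compared in each pair. In E-Int29-Hi over MG, 1 was higher and 4 were lower. The higher gene was Pappa, which encodes the protease PAPP-A, at 15.6 FPKM in E-Int29-Hi, 2.91 in MG and 2.59 in LCC. The lower ones included Stc2, whose product inhibits PAPP-A, at 43.9 FPKM in MG against 2.49 in E-Int29-Hi and 1.16 in LCC. Grb10, an adaptor that restrains the receptors, stood at 2.60 FPKM in E-Int29-Hi against 27.3 in MG and 17.7 in LCC, and Igf2bp2, an RNA-binding protein gene, at 0.845 against 13.3 and 7.20 FPKM. Stc1, also an inhibitor of PAPP-A, was the last of them, at 3.27 FPKM in E-Int29-Hi, 18.8 in MG and 10.4 in LCC.

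LCC over E-Int29-Hi gave 2 higher genes (Grb10 and Igf2bp2) and 2 lower ones (Pappa and Irs2). Irs2, a docking protein of the insulin and IGF-I receptors, stood at 85.5 FPKM in E-Int29-Hi, 29.8 in MG and 16.2 in LCC. Against MG, LCC had 0 higher genes and 1 lower (Stc2), and all 10 stood below MG by some amount, with a median of -0.82. Of all 12443 genes, 50.3% stood above MG by some amount. Htra1, a secreted protease and among the most abundant of the list, stood at 34.2 FPKM in LCC, 67.6 in the E-Int29-Hi fraction and 72.4 in MG.

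The FGF ligands were mostly faint. Their 22 genes summed to 15.3 FPKM in LCC, 39.5 in the E-Int29-Hi library and 27.3 in MG, far less than the 4 receptor genes (177, 275 and 305 FPKM). Fgf2, a basic FGF without a classical signal peptide, was the most abundant ligand gene in E-Int29-Hi and MG and level with Fgf7 in LCC, at 4.40 FPKM in LCC, 19.2 in the E-Int29-Hi fraction and 8.29 in MG. Fgf1, its acidic relative, stood at 0.576, 6.36 and 0.888 FPKM and was lower in LCC than in E-Int29-Hi (-2.22). Fgf1 and Fgf2 together held 64.6% of the ligand sum in E-Int29-Hi, 32.5% in LCC and 33.6% in MG.

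The ligands known from stroma had another order. Fgf7 (keratinocyte growth factor) stood at 4.38 FPKM in LCC, 3.93 in MG and 1.70 in E-Int29-Hi, and Fgf10, which drives mammary bud and lung growth, at 0.531, 2.12 and 0.165 FPKM. Together they held 32.2% of the ligand sum in LCC, 22.1% in MG and 4.70% in E-Int29-Hi. None of their differences reached 4-fold, but that of Fgf10 in E-Int29-Hi over MG (-1.42) was -3.06 with a pseudocount of 0.1 and -2.47 under TPM, both past the limit. The difference of Fgf7 between LCC and MG (0.13) turned to -0.21 under TPM. Fgf18 stood at 4.17 FPKM in MG, 0.999 in the E-Int29-Hi fraction and 0.788 in LCC.

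The endocrine ligand genes Fgf21 and Fgf23, whose products act with Klotho co-receptors, were also detected. Fgf21 stood at 4.38 FPKM in E-Int29-Hi, 2.22 in MG and 0.418 in LCC, and Fgf23 at 1.87 FPKM in LCC, 0.832 in MG and 0.779 in E-Int29-Hi. The co-receptor genes Kl and Klb stood at or below 0.183 FPKM in each library. The 4 genes of the intracellular, non-secreted group reached at most 1.49 FPKM. Fgf11 stood at 0.373 FPKM in LCC, 1.38 in the E-Int29-Hi library and 1.02 in MG. In the same order, Fgf12 stood at 0, 1.49 and 0.536, Fgf13 at 0.733, 1.03 and 1.33, and Fgf14 at 0, 1.33 and 0.128. A listed 0 can be a failed estimate, so no fold is given against it.

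Of the 4 FGF receptor genes, 2 were lower in LCC than in E-Int29-Hi (Fgfr2 and Fgfr3), as were 4.35% of all 12147 genes. Fgfr1 was the most abundant in every library. Fgfr1 stood at 169 FPKM in LCC, 191 in the E-Int29-Hi library and 248 in MG, and ranked 338, 254 and 141 among all gene names. Fgfr2, whose epithelial splice form binds FGF7 and FGF10, stood at 6.53 FPKM in LCC, 70.9 in the E-Int29-Hi fraction and 51.5 in MG. Its log2 difference was -3.26 for LCC over E-Int29-Hi and -2.80 for LCC over MG, and it was 0.46 for E-Int29-Hi over MG. Gene-level values do not tell splice forms apart.

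Fgfr3 followed Fgfr2 in order, at 1.05 FPKM in LCC, 9.59 in the E-Int29-Hi library and 5.64 in MG (-2.37 for LCC over E-Int29-Hi). Fgfr4 stood at 0.286, 3.92 and 0.440 FPKM, with a difference of -1.93 that passed 4-fold only with a pseudocount of 0.1 or under either scaling. The level of Fgfr1 was 25.8 times that of Fgfr2 in LCC, 2.69 times in E-Int29-Hi and 4.82 times in MG.

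Co-receptor, binding and docking genes of the FGF system, 12 in the list, had 1 higher member in LCC over E-Int29-Hi (of 7 compared), 0 higher or lower over MG (of 7), and 1 lower in E-Int29-Hi over MG (of 6). In both cases this was Flrt2, which encodes a membrane protein that can bind FGF receptors, at 13.9 FPKM in LCC, 8.23 in MG and 0.769 in E-Int29-Hi. The heparan sulphate carriers Sdc1 and Gpc1 were the most abundant, at 149, 92.7 and 123 FPKM and at 71.3, 61.8 and 28.0 FPKM, with LCC first and MG last. Fgfrl1, a receptor-like gene without a kinase, stood at 9.62, 23.1 and 6.93 FPKM.

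Of 11 genes that FGF and MAP kinase signals induce or that restrain them, 0 were higher and 1 lower in LCC over E-Int29-Hi, with a median of -0.92. The lower gene was Dusp6, an ERK phosphatase, at 23.6 FPKM in LCC, 135 in the E-Int29-Hi fraction and 65.4 in MG. Neither comparison with MG had a gene 4-fold apart, and the medians were 0.01 for LCC and 0.95 for E-Int29-Hi. Spry2, a feedback inhibitor, went the other way from Dusp6, at 195 FPKM in LCC, 99.4 in the E-Int29-Hi library and 89.6 in MG. Spred1, also a feedback inhibitor, stood at 33.3, 63.7 and 32.5 FPKM. The list members therefore did not move together.

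**Figure D4:**
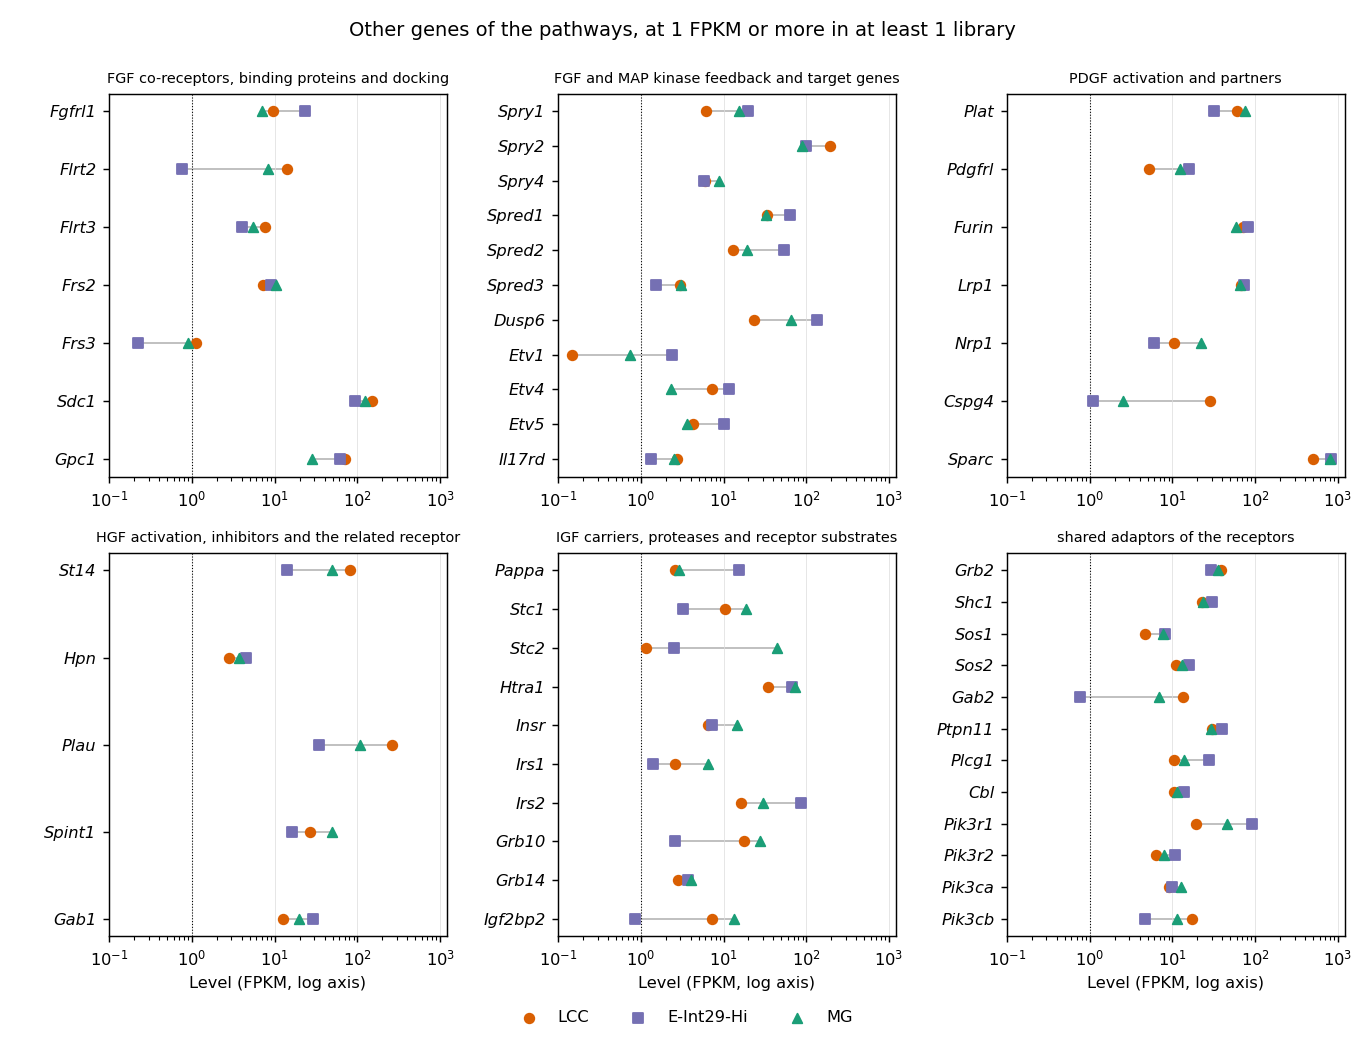
Levels of the other pathway genes in 6 lists, for genes that reached 1 FPKM in any library. The x axis is FPKM on a log scale and each point is 1 library. Dusp6, Irs2 and Pappa have their highest level in E-Int29-Hi, and Cspg4, St14 and Plau in LCC.

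The PDGF receptors stood out by their low level in E-Int29-Hi. Pdgfra, which marks fibroblasts, stood at 3.34 FPKM in E-Int29-Hi, 18.0 in LCC and 31.7 in MG, and Pdgfrb, a gene of pericytes and fibroblasts, at 3.84, 25.5 and 36.9 FPKM. For LCC over E-Int29-Hi the differences were 2.13 and 2.45, or 1.87 and 2.19 above the median gene, and for E-Int29-Hi over MG they were -2.91 and -2.97. Between LCC and MG they were -0.78 and -0.52. The ratio of Pdgfra to Pdgfrb was 0.705 in LCC, 0.870 in the E-Int29-Hi fraction and 0.858 in MG.

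Fibroblast markers other than Postn moved with the receptors. Of 10, 7 were higher in LCC than in E-Int29-Hi and 9 were lower in E-Int29-Hi than MG. Postn went the other way in both comparisons (-1.20 and 0.55). The summed level of the 10 was 1713 FPKM in LCC, 788 in the E-Int29-Hi library and 3812 in MG. Postn alone gave 652 FPKM in E-Int29-Hi. The 8 pericyte markers summed to 76.0, 97.1 and 111 FPKM, with 1 higher in LCC than in E-Int29-Hi. In that pair 3 of the 7 compared stood above and 4 below, with a median of -0.08. In E-Int29-Hi over MG 1 stood above and 6 below. No fibroblast or pericyte marker was listed at 0. Their part in the receptor levels was not tested.

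Among the PDGF ligand genes, Pdgfb and Pdgfa were the most abundant in LCC and MG, and Pdgfb in E-Int29-Hi. Pdgfb stood at 59.3 FPKM in LCC, 65.6 in the E-Int29-Hi fraction and 24.1 in MG, and Pdgfa at 52.7, 26.7 and 30.7 FPKM. Pdgfb was above MG by 1.26 in LCC and by 1.41 in E-Int29-Hi. The 8 endothelial markers summed to 128, 111 and 565 FPKM. The 5 platelet markers summed to 9.12, 11.3 and 8.77 FPKM, with 1 listed at 0 in LCC. The part of either cell type, both known sources of PDGF-B, in the Pdgfb level was not tested. The small difference of Pdgfa in E-Int29-Hi over MG (-0.20) turned to 0.13 under median ratio scaling.

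Pdgfc and Pdgfd encode ligands that need a protease to release their active part. Pdgfc stood at 31.4 FPKM in E-Int29-Hi, 6.33 in LCC and 5.82 in MG, at least 4-fold above both others (-2.14 for LCC over E-Int29-Hi and 2.25 for E-Int29-Hi over MG). Between LCC and MG its difference was 0.10, and -0.25 under TPM. Pdgfd stood at 5.52 FPKM in MG, 2.35 in the E-Int29-Hi library and 1.37 in LCC. Plat, the protease that activates PDGF-CC, stood at 59.6 FPKM in LCC, 31.7 in the E-Int29-Hi library and 75.6 in MG.

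Of 7 genes of PDGF activation and partners, 1 was higher in LCC than in E-Int29-Hi and the same gene was higher than in MG, while 0 were lower. This was Cspg4, which encodes the proteoglycan NG2 that binds PDGF-AA, at 28.8 FPKM in LCC, 1.10 in the E-Int29-Hi fraction and 2.52 in MG. It is also a pericyte marker, and it was the 1 higher gene of that list, whereas Rgs5, the pericyte marker most abundant in MG, stood at 6.49, 10.6 and 47.8 FPKM. Sparc, a matrix protein that binds PDGF, was the most abundant of the list in every library, at 495, 827 and 796 FPKM (LCC first, MG last). Furin, a convertase that processes PDGF-A and PDGF-B, stood at 71.1, 82.2 and 58.0 FPKM, next to Sparc in LCC and E-Int29-Hi and behind Plat and Lrp1 in MG. Lrp1, an endocytic co-receptor of the PDGF receptor beta, stood at 67.7, 72.9 and 66.0 FPKM, close to level. E-Int29-Hi had 0 genes of this list 4-fold apart from MG.

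Hgf and Met had opposite orders across the libraries. Hgf, the ligand gene, stood at 21.8 FPKM in E-Int29-Hi, 6.96 in LCC and 3.82 in MG, and was higher in E-Int29-Hi than MG (2.24). Met, the receptor gene, stood at 64.1 FPKM in MG, 32.1 in LCC and 14.5 in E-Int29-Hi, and was lower in E-Int29-Hi than MG (-2.07). The level of Hgf was 1.51 times that of Met in E-Int29-Hi, 0.217 times in LCC and 0.0596 times in MG, an order that no scaling of whole libraries changes. In LCC over E-Int29-Hi the differences were -1.52 for Hgf and 1.10 for Met, and in LCC over MG they were 0.72 and -0.98. Median ratio scaling took Met inside the 4-fold limit in E-Int29-Hi over MG. A pseudocount of 5 took both Hgf and Met inside it (1.61 and -1.83).

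HGF is secreted as an inactive chain that proteases cut, and Spint1 encodes an inhibitor of those proteases. Of 9 genes in this list, 5 could be compared. Plau, the urokinase gene, stood at 265 FPKM in LCC, 34.3 in the E-Int29-Hi library and 108 in MG, and St14, the matriptase gene, at 82.0, 14.1 and 49.0 FPKM. Both were higher in LCC than in E-Int29-Hi (2.91 and 2.46), and 0 of the 5 were 4-fold apart in either comparison with MG. Spint1 stood at 26.6, 16.3 and 49.5 FPKM. Mst1r, which encodes the receptor related to Met, stayed below 1 FPKM, at 0.967, 0.194 and 0.999 FPKM, and Hgfac, the HGF activator gene, reached at most 0.356 FPKM. Luminal markers moved with Met only in part. In LCC over E-Int29-Hi 4 of 8 were higher, but 3 (Elf5, Esr1 and Pgr) stood below, opposite to Met. In E-Int29-Hi over MG 6 of 8 were lower. In LCC over MG, where Met stood below, 5 markers were below and 3 above (Krt8, Krt18 and Cldn4). None of the 8 markers was listed at 0. Their part in the Met level was not tested.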

How the data were processed

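RNA with poly(A) tails from 3 pooled mouse samples was sequenced, per the labels' protocols. For each library the authors deposited FPKM values of 22378 gene models, each with a status. The submitters' processing notes name TopHat 1.4.1, Cufflinks 1.3.0 and mm9, with no role. Which annotation release was used is not given here.

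The 22188 gene models whose status was OK in every library were used. Among models of one name, that with the highest summed FPKM was kept, leaving 22077 names, the 45 described here included. Read counts were not given, and the low values gave no settled depth: the most frequent ratio among low values was found in 15 of 391 genes (LCC and E-Int29-Hi), 18 of 331 (LCC and MG) and 129 of 1184 (E-Int29-Hi and MG). Depth is therefore unknown and no interval is given.

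Differences used a pseudocount of 1 FPKM, a filter at 1 FPKM in either library and a 4-fold limit. The genes, the 6 pathway lists and the 9 marker lists were chosen with earlier results of these data known. The naming rule took each gene of the set and, from each pathway list, genes at least 4-fold apart and up to 3 of the most abundant. Spry3 and Spint2 of the lists were not among the names analysed, and the macrophage symbols Emr1 and Adgre1 are 1 gene. Alternatives were a pseudocount of 0.1 or 5, no filter or one at 5 FPKM, 2 other scalings, every status, summed models and a 2-fold limit. The steps were checked on simulated data. Promoter windows came from RefSeq (GRCm38.p6), where all 7 binding protein genes were matched, and no coordinates were set against the tables. Python 3.11.15, numpy 2.4.6, pandas 2.3.3 and matplotlib 3.10.9 were used.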

Additional observations from a re-analysis of the deposited data

Results flagged for a closer look

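A second gene model named Fgfr1 (ENSMUSG00000091895), left out because its status was LOWDATA in each library, was listed at 1.24 FPKM in E-Int29-Hi, above its value of 5.48e-06 FPKM in MG. It is the 1 model of the set that the comparisons did not use.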

How the results depend on the processing

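No paired analysis was possible because each group has 1 library. Of 54 counts of genes 4-fold apart recomputed under the alternatives, 38 stayed within 1.5 times the main count. Part of this agreement was fixed in advance. Dropping the filter could not change a count, because a 4-fold call needs at least 3 FPKM. Using every status or summing models could not either, because each gene of the set had a single model with status OK. In LCC over E-Int29-Hi, where 2 genes were higher and 7 lower, a pseudocount of 5 gave 0 higher and 4 lower. A pseudocount of 0.1 gave 12 lower (adding Fgf2, Fgf12, Fgf14, Fgf21 and Fgfr4), TPM 12 lower, median ratio scaling 1 higher, and a 2-fold limit 5 higher and 15 lower. In LCC over MG (0 and 4), a pseudocount of 0.1 gave 7 lower, TPM 8 lower, and a 2-fold limit 1 higher and 12 lower. In E-Int29-Hi over MG (4 and 6), a pseudocount of 0.1 gave 7 higher (adding Fgf1, Fgf14 and Fgfr4), a pseudocount of 5 gave 2 higher and 3 lower, median ratio scaling gave 3 lower, and a 2-fold limit gave 11 higher. A 2-fold limit can only add genes, and a smaller pseudocount widens each log2 difference while a larger one narrows it. Why the libraries differ in scaling was not tested. Of 708 recomputed differences of single genes, 62 moved by over 1.5 times. Many of the 708 could not move, because the filter, status and summed model settings left each gene's value as it was. Of those 4-fold apart, 0 changed sign, but no setting could have reversed so large a difference. A pseudocount keeps the sign, and the scaling factors lay close together (0.863 to 1.09 for the median ratio, 2.66 to 3.47 for TPM). In all, 5 differences changed sign under a scaling, namely those of Igf2r, Fgf7, Igfbp7, Pdgfc and Pdgfa given above. Unknown depth limits most the Fgf ligand genes below 1 FPKM and the genes listed at 0.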

Other observations

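The adaptors and PI3 kinase genes that the receptors of all 4 systems share formed a list of 12 genes, which were all compared. Of these, 1 was higher (Gab2) and 1 lower (Pik3r1) in LCC than in E-Int29-Hi, 0 were 4-fold apart between LCC and MG, and 1 was lower in E-Int29-Hi than MG (Gab2). Gab2, a docking protein, stood at 13.3 FPKM in LCC, 6.93 in MG and 0.753 in E-Int29-Hi. Pik3r1, a regulatory subunit of PI3 kinase, stood at 19.5 FPKM in LCC, 45.2 in MG and 92.4 in E-Int29-Hi. The linker gene Grb2 stood at 39.1, 35.2 and 29.2 FPKM in that order, and the phosphatase gene Ptpn11 at 30.2, 28.9 and 39.7 FPKM.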
